A study of Homo sapiens with 6 samples.

Results

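Genes of the Notch pathway, together with the Delta-like gene DLK1, were examined in human SH-SY5Y cells exposed to unconjugated bilirubin. The 10 genes were the ligands DLL3, JAG1 and JAG2, the ligand-like DLK1, the receptors NOTCH1, NOTCH2 and NOTCH3, the DNA-binding factor RBPJ, and the target genes HES1 and HEY1. Every probe set that the array's annotation assigned to exactly 1 gene symbol was taken if that symbol was in this list. This gave 22 probe sets of the 22215 tested, and 10 of the 11963 genes named, with none of the 10 genes lost.

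Expression was measured on 6 Affymetrix GeneChip expression arrays, 1 for the total RNA of each culture. Of these, 3 were from cells kept for 1 h in medium with free bilirubin (Bf) at 140 nM, and 3 from cells kept for 1 h in medium with DMSO at 0.6%. Bf stands for the bilirubin left free by albumin in the medium. DMSO is its solvent, so the treated cells received DMSO as well as bilirubin. The cells of both groups were from the ATCC line and grown in the same medium with foetal bovine serum, and treatments were given in separate flasks described as independent biological replicates. SH-SY5Y is an established neuroblastoma line, so all 6 arrays represent the genome of 1 tumour line. With 3 arrays a group, the number of arrays limits the precision. The p-values measure the spread between these arrays, in which cultures and processing are not separated.

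In canonical Notch signalling, a Delta-like or Jagged ligand on 1 cell binds a Notch receptor on its neighbour, and the receptor is then cleaved by an ADAM protease and by γ-secretase. The released intracellular domain enters the nucleus, binds RBPJ with Mastermind-like coactivators, and switches RBPJ target genes such as HES1 and HEY1 from repression to activation. The pathway is best known in the developing nervous system for keeping progenitors from differentiating, because HES and HEY proteins repress proneural genes. DLK1 is a membrane protein of chromaffin and preadipocyte lineages that resembles the Delta ligands but lacks the domain through which they activate the receptor.

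The labelled cell type was checked first. Where a marker gene had several probe sets the brightest was taken, which favours a level above the median. Of 8 noradrenergic neuroblastoma markers, 7 had a probe set with 1 symbol, and 5 of these (PHOX2A, DBH, GATA2, GATA3 and ISL1) lay above the median of all probe sets on each of the 6 arrays. HAND2 lay above it on 4 arrays, and TH, the first enzyme of catecholamine synthesis, lay below it on all 6. Of the 8 mesenchymal neuroblastoma markers 5 were also above the median on all 6 arrays (VIM, FN1, SNAI2, COL1A1 and COL3A1), and PRRX1, CD44 and YAP1 lay below it on all 6. Of 4 Schwann cell markers 2 were measured, S100B and SOX10, and their mean level by replicate number was between 7.43 and 7.52, below each array's median. Medians of the arrays were between 7.73 and 7.97 on the deposited log2 scale, on which a difference of 1 is 2-fold. The base of the logarithm was taken from the normalization method and the span of the values. If the values were natural logs, each fold would be larger.

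The arrays of replicate number 3 stood apart in both groups. The signal of the 3′ control probe set of actin exceeded that of the 5′ one by 1.49 (Bf) and 1.90 (DMSO) in replicate 3, against 0.10 to 0.50 on the other 4 arrays. For GAPDH the same difference was 1.03 and 1.15 in replicate 3, against 0.20 to 0.25. This 3′ bias, a sign of RNA quality or labelling, moved with the differences by replicate number given here, and its part in them was not tested. The treatment differences of the 22 probe sets are therefore also shown by replicate number.

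After 1 h, no Notch pathway probe set passed the test for a difference between Bf 140 nM and DMSO 0.6%. In limma with Benjamini-Hochberg adjustment over all 22215 probe sets, 0 of 22 rose and 0 of 22 fell at an adjusted p under 0.10, where the calls over all probe sets were 0% higher and 0% lower. The smallest adjusted p among the 22 was 1.00. Without adjustment, 0 of the 22 and 22 of all probe sets had p under 0.05. With the replicate number as a block, again 0% of all probe sets and 0 of the 22 passed. Then 1 of the 22 (HES1, 203394_s_at) and 270 of all probe sets had an unadjusted p under 0.05. Without the block, differences by replicate number enter the error, so that test is conservative. In bulk RNA, fewer cells of a kind and less RNA per cell cannot be told apart.

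The sizes were small in both directions. The 22 mean differences, Bf minus DMSO, ran from -0.085 to 0.25 on the log2 scale with a median of 0.010, against 0.014 over all probe sets, and 12 were above 0 and 10 below. The median size without its sign was 0.038, against 0.048 over all probe sets. The 95% interval of the difference lay within 2-fold either way for 20 of the 22 probe sets, the others being NOTCH2 210756_s_at and HES1 203394_s_at, and within 1.5-fold for 17. With the replicate block, all 22 intervals lay within 1.5-fold, and the median distance from the mean to the interval's end fell from 0.31 to 0.19.

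**Figure D1:**
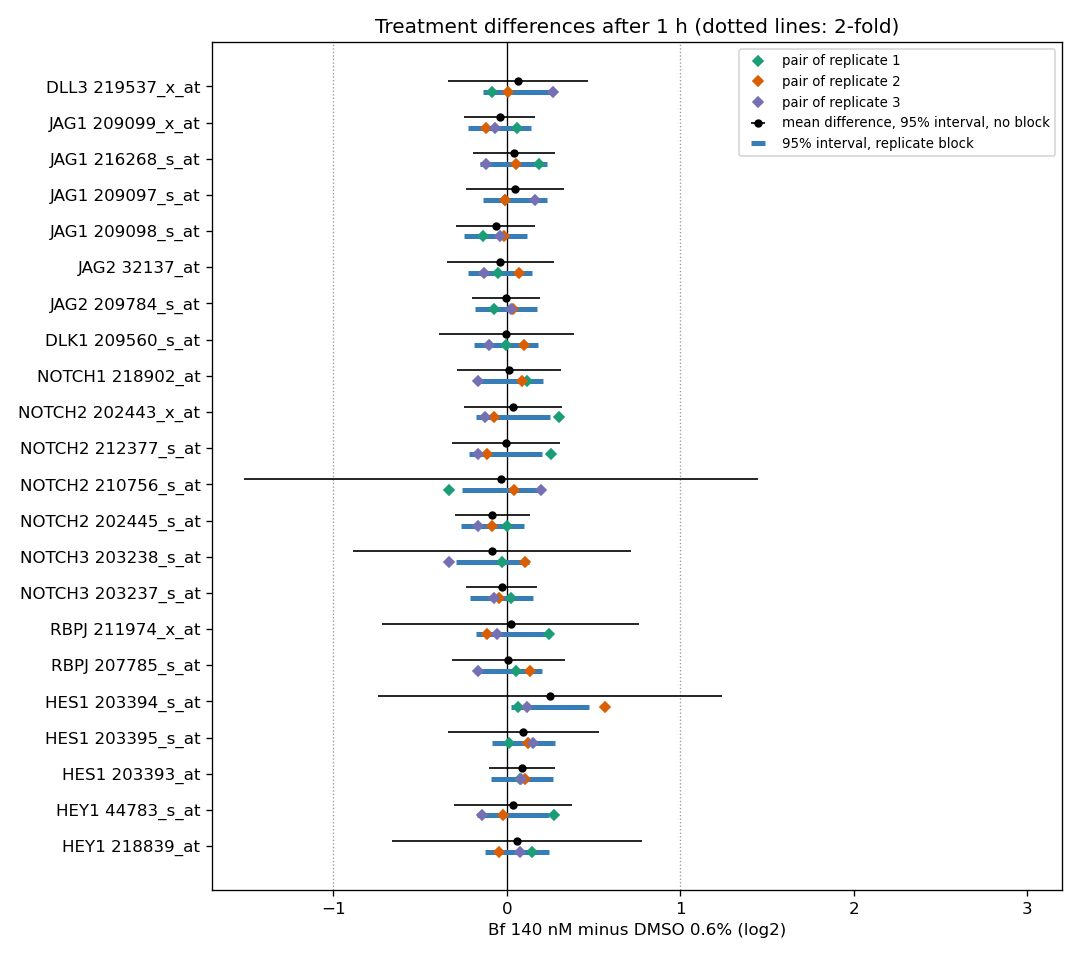
Bf 140 nM minus DMSO 0.6% on the log2 scale for the 22 probe sets, with the mean difference and its 95% interval without a block (black), the 95% interval with the replicate number as a block (blue bar) and the difference within each replicate number (diamonds, 1 pair each). Black intervals all cross 0, and the blue bar of HES1 203394_s_at, from 0.02 to 0.47, is the only one that does not.

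Levels are given as log2 values of a probe set. Since each probe set binds with its own strength, the order of brightness between probe sets does not rank transcripts. On all 6 arrays 9 of the 22 probe sets were above the array median and 10 were below it. The 9 were DLK1, NOTCH2 202443_x_at and 212377_s_at, NOTCH3 203238_s_at, both HEY1 probe sets, DLL3 and both RBPJ probe sets. NOTCH1 (218902_at), JAG2 209784_s_at and all 4 JAG1 probe sets were among those below.

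**Figure D2:**
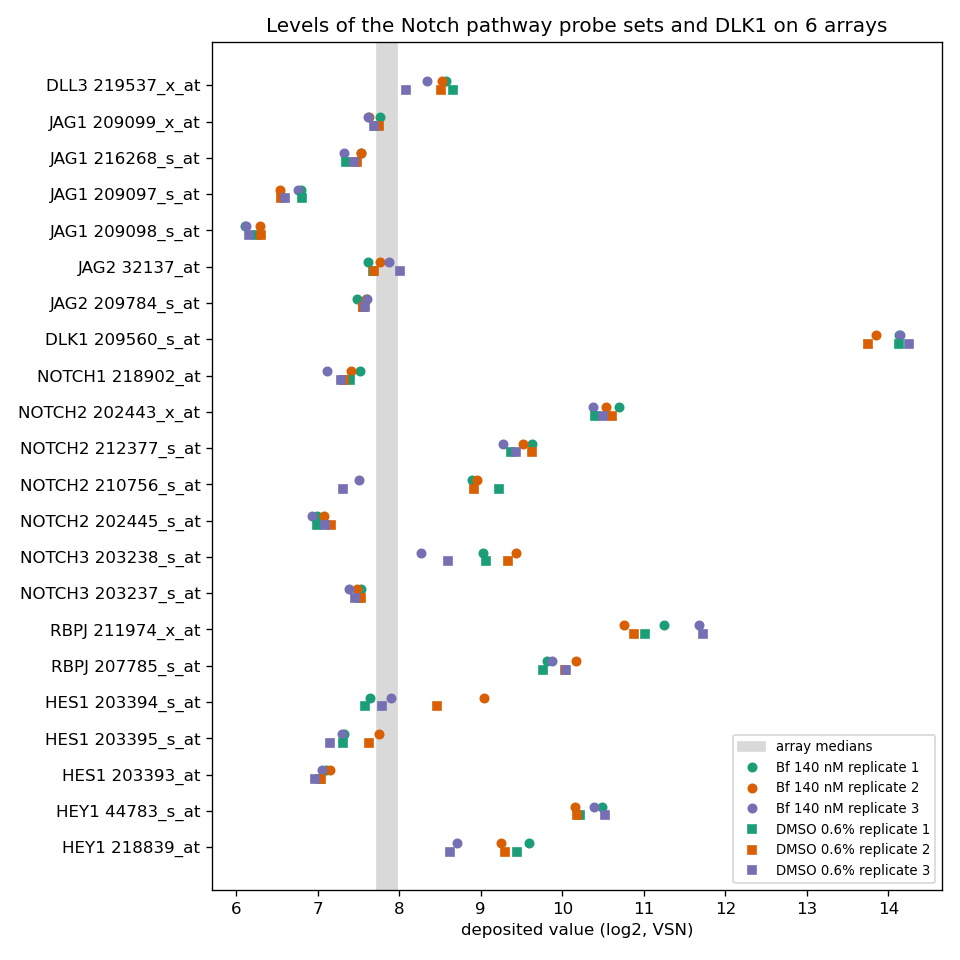
Deposited log2 value of each of the 22 probe sets on the 6 arrays, by role from ligands at the top to targets at the bottom, with circles for Bf 140 nM, squares for DMSO 0.6%, a colour for each replicate number and a grey band for the range of the array medians (7.73 to 7.97). DLK1 lies far to the right of the band at 13.75 to 14.25, and the widest spreads are those of NOTCH2 210756_s_at (1.92), HES1 203394_s_at (1.46) and NOTCH3 203238_s_at (1.17).

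Among the ligands, DLL3 is an unusual Delta-like protein that stays mostly inside the cell, does not activate receptors on neighbouring cells, and marks neuroendocrine tumours. Its probe set, 219537_x_at, had values of 8.58, 8.52 and 8.34 in Bf replicates 1 to 3, and of 8.66, 8.51 and 8.08 in DMSO replicates 1 to 3. Both replicate 3 arrays were the lowest of their group, and the groups overlapped. The treatment difference was 0.062 with a 95% interval from -0.34 to 0.47 (limma adjusted p = 1.00). It was -0.084, 0.0071 and 0.26 within replicates 1, 2 and 3. As a probe set of the x type, it may match other sequences than DLL3.

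JAG1 encodes the Jagged ligand whose loss of 1 copy causes Alagille syndrome. Its 4 probe sets varied by 0.27 or less and lay below the array median, with 209098_s_at at percentiles from 5.9 to 8.9. Their lowest and highest values over the 6 arrays were 7.62 and 7.76 for 209099_x_at, 7.32 and 7.53 for 216268_s_at, 6.54 and 6.81 for 209097_s_at, and 6.11 and 6.31 for 209098_s_at. Treatment differences were -0.042, 0.039, 0.047 and -0.065 in that order, so that a pair lay above 0 and a pair below it, and none passed (limma adjusted p = 1.00 each). The difference of 209098_s_at was below 0 in each of the 3 pairs, at -0.14, -0.016 and -0.038. It was the only probe set of the 22 with this pattern, or 4.55%, where 5.83% of all probe sets had it.

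JAG2 encodes the other Jagged ligand. Probe set 209784_s_at read 7.48, 7.59 and 7.60 in Bf and 7.55, 7.56 and 7.58 in DMSO, with a difference of -0.0061 and a 95% interval from -0.20 to 0.19. Probe set 32137_at read 7.62, 7.76 and 7.88 in Bf and 7.67, 7.69 and 8.01 in DMSO, with a difference of -0.038 and an interval from -0.35 to 0.27. Both replicate 3 arrays were the highest of their group in each probe set, and the groups overlapped.

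DLK1 had the brightest of the 22 probe sets. Probe set 209560_s_at read 14.12, 13.85 and 14.14 in Bf replicates 1 to 3 and 14.13, 13.75 and 14.25 in DMSO. On each array it was among the 142 brightest of the 22215 probe sets, with a rank from 87 to 142, or a percentile from 99.4 to 99.6. Both replicate 2 arrays were the lowest, and the groups overlapped. Group means were 14.04 ± 0.16 (Bf, SD, n = 3) and 14.04 ± 0.26 (DMSO, SD, n = 3). Their difference was -0.0034, with a 95% interval from -0.39 to 0.38, and from -0.19 to 0.18 with the replicate block (limma adjusted p = 1.00 in both). By replicate number the differences were -0.0031, 0.099 and -0.11.

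DLK1 lies in an imprinted cluster with the non-coding RNA MEG3 and with DIO3, which encodes a thyroid hormone deiodinase. MEG3 is expressed from the opposite parental copy to DLK1. The brighter of its 2 probe sets read 7.34, 7.52 and 7.17 in Bf and 7.53, 7.45 and 7.11 in DMSO. Its difference was -0.016 with a 95% interval from -0.38 to 0.34. DIO3 read 7.97, 7.80 and 7.80 in Bf and 7.74, 7.94 and 7.65 in DMSO, with a difference of 0.081 and an interval from -0.19 to 0.35. The groups overlapped in each gene. RTL1, also of this cluster, had no probe set with 1 symbol.

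Of the receptors, NOTCH1 is the one most widely studied in leukaemia and neurogenesis. Its 1 probe set, 218902_at, read 7.52, 7.41 and 7.12 in Bf and 7.40, 7.32 and 7.28 in DMSO. The Bf values spanned the DMSO values, and the difference was 0.012 with a 95% interval from -0.29 to 0.31. Replicate 3 was the lowest in both groups.

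NOTCH2 had 4 probe sets that did not behave alike. Probe set 210756_s_at read 8.89, 8.96 and 7.50 in Bf and 9.23, 8.92 and 7.30 in DMSO, so that replicate 3 was far below replicates 1 and 2 in both groups. Probe set 202443_x_at read 10.70, 10.54 and 10.37 in Bf and 10.40, 10.61 and 10.50 in DMSO, a range of 0.33. The ranges of 212377_s_at (0.36) and 202445_s_at (0.23) were also narrow beside the 1.92 of 210756_s_at. Their mean levels over the arrays were 9.48 and 7.04, and 202445_s_at lay below the median of every array. Treatment differences were -0.034, 0.033, -0.0072 and -0.083 for the 4 in this order, and none passed. The interval of 210756_s_at ran from -1.51 to 1.45 without the block and from -0.26 to 0.19 with it. The genome holds partial copies of NOTCH2 (the NOTCH2NL genes), and the annotation does not say which of these probe sets match them, so that the NOTCH2 values are uncertain.

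NOTCH3 is a receptor prominent in vascular smooth muscle and in mesenchymal neuroblastoma cells. Probe set 203238_s_at read 9.03, 9.44 and 8.27 in Bf and 9.06, 9.33 and 8.60 in DMSO. Replicate 2 was highest and replicate 3 lowest in both groups, and the groups overlapped. The difference was -0.085 with a 95% interval from -0.89 to 0.72, or -0.30 to 0.13 with the block. The other probe set, 203237_s_at, varied between 7.38 and 7.53 with a difference of -0.031 and an interval from -0.23 to 0.17.

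RBPJ is the nuclear factor that all Notch receptors act through. Probe set 211974_x_at read 11.25, 10.76 and 11.67 in Bf and 11.01, 10.88 and 11.73 in DMSO, with replicate 3 highest in both groups and replicate 2 lowest. Probe set 207785_s_at read 9.82, 10.16 and 9.88 in Bf and 9.76, 10.03 and 10.04 in DMSO, without that order. Their treatment differences were 0.022 (95% interval -0.72 to 0.76) and 0.0077 (-0.32 to 0.33). The groups overlapped in both. Probe set 211974_x_at is of the x type and may match other sequences than RBPJ.

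HES1 encodes a basic helix-loop-helix repressor, the best known direct target of Notch, and it also represses its own gene. The promoter is shown because RBPJ binds the letters TGGGAA and HES1 carries this motif more than once just before its start. Windows of 300 bases, from 250 bases before to 50 after each annotated start, came from RefSeq (GRCh38.p14) and were searched on both strands for TGGGAA. Of the 10 genes, 7 had windows, 11 in all, and 2 of these 11 held the motif: that of HES1 and 1 of 5 for RBPJ itself. HEY1, DLK1 and DLL3 had no window and were not searched. Of all 35116 windows, 24.0% held it, and 3.80% held it more than once. The stretches with their motifs lie on the plus strand at chr3:194136044-194136103 (HES1) and chr4:26319611-26319699 (RBPJ), upstream of the start, and capitals mark TGGGAA or its reverse complement.
HES1: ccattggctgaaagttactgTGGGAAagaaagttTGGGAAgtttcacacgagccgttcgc
RBPJ: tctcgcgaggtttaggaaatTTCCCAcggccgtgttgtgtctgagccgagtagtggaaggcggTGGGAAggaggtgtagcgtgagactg
The motifs of HES1 begin 84 and 70 bases before its start, and those of RBPJ 115 and 72 bases before the start. The longer GTGGGAA, which overlaps TGGGAA, was in 6.25% of all windows and in the same 2 of the 11. These letters are a description of the sequence and not measured binding.

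The mean differences of all 3 HES1 probe sets were above 0, as were those of HEY1, RBPJ, DLL3 and NOTCH1, and none passed the test. Probe set 203394_s_at read 7.64, 9.03 and 7.90 in Bf replicates 1 to 3 and 7.57, 8.47 and 7.79 in DMSO. Both replicate 2 arrays were the highest of their group and the groups overlapped. The group means were 8.19 ± 0.74 (Bf, SD, n = 3) and 7.94 ± 0.46 (DMSO, SD, n = 3). Their difference of 0.25 had a 95% interval from -0.74 to 1.24 without the block and from 0.02 to 0.47 with it (limma adjusted p = 1.00 in both). Within replicates 1, 2 and 3 the differences were 0.064, 0.57 and 0.11. The largest pair difference was that of replicate 2, the number in which both groups were highest. Leaving out 1 array of that pair unbalanced the groups, and the mean difference was -0.17 without the Bf array and 0.51 without the DMSO array.

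Probe set 203393_at read 7.11, 7.15 and 7.05 in Bf and 7.03, 7.04 and 6.97 in DMSO, all below the median of the array. Each Bf value was above each DMSO value, the lowest Bf array being 7.05 and the highest DMSO array 7.04. It was the only probe set of the 22 (4.55%) whose groups did not overlap, where 2.65% of all probe sets did not. The difference of 0.086 had a 95% interval from -0.11 to 0.28, and did not pass (limma adjusted p = 1.00). Probe set 203395_s_at read 7.32, 7.75 and 7.30 in Bf and 7.31, 7.63 and 7.15 in DMSO, also all below the median of the array. Its difference was 0.095, with an interval from -0.34 to 0.53 and overlapping groups.

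All 9 differences of HES1, of 3 probe sets in 3 pairs, were above 0, from 0.012 to 0.57. This was noticed after the values were seen, and the 3 probe sets share their arrays. After quantile normalization, or with equal array medians, 8 of the 9 were above 0. Over the 22 probe sets, 3 were above 0 in all 3 pairs, all of HES1, or 13.6%, where 11.8% of all probe sets were.

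HEY1 encodes a related repressor. Probe set 218839_at read 9.59, 9.25 and 8.70 in Bf and 9.45, 9.30 and 8.63 in DMSO, with replicate 3 lowest in both. Probe set 44783_s_at read 10.49, 10.15 and 10.39 in Bf and 10.22, 10.18 and 10.53 in DMSO, with replicate 2 lowest in both. The groups overlapped in each. Treatment differences were 0.057 (95% interval -0.66 to 0.78) and 0.035 (-0.30 to 0.37).

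Within replicate numbers, the median of the 22 treatment differences was 0.039, 0.020 and -0.071 for replicates 1, 2 and 3, and the median over all probe sets was 0.023, -0.0038 and 0.033. Where a gene had several probe sets, the pair differences did not always share a sign. In replicate 1, NOTCH2 210756_s_at was at -0.34 while 202443_x_at and 212377_s_at were at 0.30 and 0.26. In replicate 3 these were 0.20, -0.13 and -0.16.

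By replicate number the measured values of these genes did differ. With treatment as a term, limma's F test of the replicate number was passed by 9 of the 22 probe sets, or 40.9%, of 8 genes, and by 44.6% of all probe sets. A share this close to that of all probe sets is not particular to the Notch genes. The 9 were HES1 203394_s_at (F test adjusted p = 4.4e-05) and 203395_s_at (0.00582), NOTCH2 210756_s_at (1.59e-06), HEY1 218839_at (0.000102), NOTCH3 203238_s_at (0.00014), RBPJ 211974_x_at (0.000188), DLK1 (0.0179), DLL3 (0.0282) and JAG2 32137_at (0.09).

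Between replicates 1 and 2, HES1 was the only one of these genes to pass the test with all 6 arrays on the deposited scale. The 3′ bias of actin was 0.12 (Bf) and 0.10 (DMSO) in replicate 1 and 0.50 and 0.37 in replicate 2. That of GAPDH was 0.21 (Bf) and 0.20 (DMSO) in replicate 1 and 0.25 and 0.21 in replicate 2. The part of this bias here was not tested. HES1 was higher in replicate 2 by 1.14 in 203394_s_at (95% interval 0.87 to 1.42, limma adjusted p = 0.000844) and by 0.38 in 203395_s_at (0.16 to 0.60, adjusted p = 0.0769). On this scale these were the only 2 of the 22 probe sets to be higher, and 0 were lower, where 1.27% of all probe sets were higher and 3.39% lower. The difference in 203394_s_at was 1.18 after quantile normalization and 1.16 with equal array medians. The weaker probe set 203393_at did not show it, with a difference of 0.03 and an interval from -0.19 to 0.24. The RBPJ probe sets went opposite ways, at 0.31 (207785_s_at) and -0.31 (211974_x_at), and NOTCH3 203238_s_at was at 0.34 and DLK1 at -0.33. None of these passed on the deposited scale (limma adjusted p from 0.136 to 0.204). After quantile normalization RBPJ 207785_s_at (0.42, limma adjusted p = 0.0518) and NOTCH3 203238_s_at (0.42, adjusted p = 0.0948) passed, and with equal array medians neither did.

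In replicate 3 against the mean of replicates 1 and 2, 7 of the 22 probe sets were lower and 3 higher, where 29.0% of all probe sets were lower and 17.7% higher. NOTCH2 210756_s_at differed by -1.59 (95% interval -1.83 to -1.35, limma adjusted p = 4.14e-07). NOTCH3 203238_s_at differed by -0.78 (-1.01 to -0.56) and HEY1 218839_at by -0.73 (-0.93 to -0.54). The others lower were DLL3 (-0.35), both HES1 probe sets 203394_s_at (-0.33) and 203395_s_at (-0.28), and NOTCH1 (-0.21, adjusted p = 0.0999). RBPJ 211974_x_at was higher by 0.72 (0.51 to 0.94), JAG2 32137_at by 0.25 and DLK1 by 0.23.

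Probe sets of the same gene often did not share this difference. NOTCH2 202443_x_at, 212377_s_at and 202445_s_at differed by -0.13, -0.19 and -0.04, and NOTCH3 203237_s_at by -0.09. Of these, 202445_s_at and 203237_s_at lay below the median of every array, where a drop may be harder to see. HEY1 44783_s_at went the other way at 0.20 (95% interval -0.02 to 0.42), and RBPJ 207785_s_at was at 0.02. None of the 6 probe sets in this paragraph passed on the deposited scale.

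**Figure D3:**
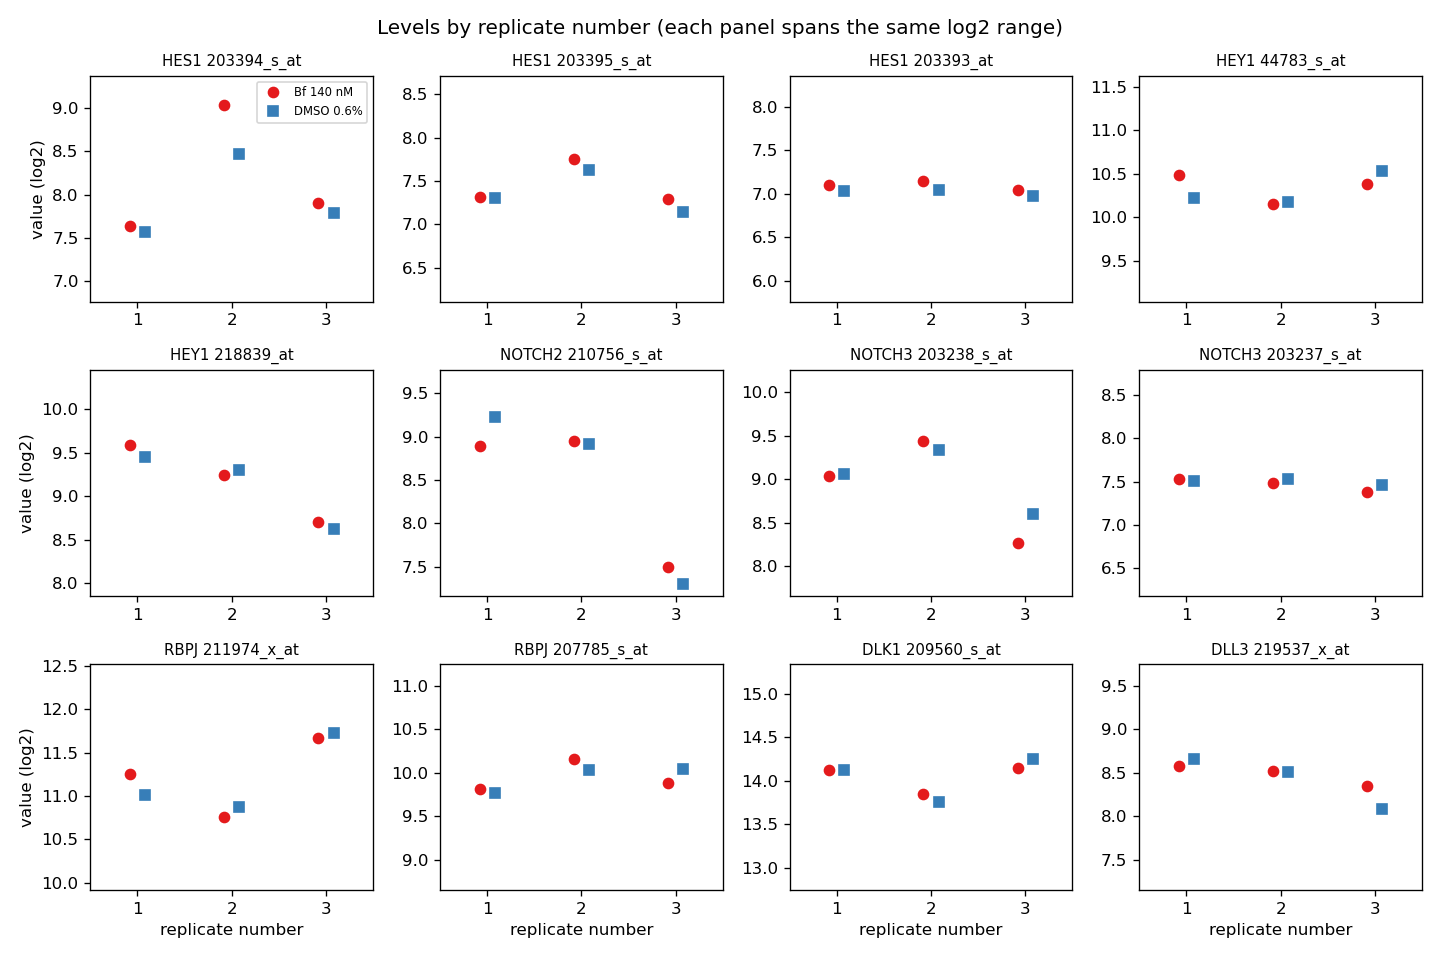
Deposited log2 values of 12 of the probe sets (for NOTCH2, the one of largest SD) by replicate number, with circles for Bf 140 nM and squares for DMSO 0.6% and 1 array per symbol. Both treatments move together: HES1 203394_s_at peaks in replicate 2, while NOTCH2 210756_s_at, NOTCH3 203238_s_at and HEY1 218839_at drop in replicate 3 and RBPJ 211974_x_at rises there.

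The split between higher and lower in replicate 3 depended on how the arrays were scaled. The median difference of all probe sets was -0.067 as deposited, 0.023 after quantile normalization and 0.13 with equal array medians, and of all probe sets called 37.9%, 53.3% and 72.1% were higher. Of the 22, 3 were higher and 7 lower as deposited, 3 and 3 after quantile normalization, and 7 and 3 with equal medians. NOTCH2 210756_s_at (-1.43 and -1.39 under the other scalings), NOTCH3 203238_s_at (-0.64 and -0.59), HEY1 218839_at (-0.59 and -0.53) and RBPJ 211974_x_at (0.56 and 0.92) kept their direction. JAG2 32137_at was higher under both (0.45 and 0.45, adjusted p = 0.00161 and 0.00222 in limma), and JAG2 209784_s_at now passed under both (0.22 and 0.24). With equal medians HEY1 44783_s_at (0.40), RBPJ 207785_s_at (0.22) and JAG1 209097_s_at (0.20) passed as higher too. DLK1 did not hold its value, at 0.04 after quantile normalization and 0.43 with equal medians. DLL3 was at -0.16 under both and NOTCH1 at -0.06 and -0.01, and these did not pass. HES1 203394_s_at was at -0.16 and -0.13 and no longer passed in this contrast.

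Marker genes of cell states moved with the replicate number too. Of the 8 mesenchymal markers 5 passed the F test and 4 were lower in replicate 3, where 44.6% and 29.0% of all probe sets did so. Each marker was its gene's brightest probe set and all probe sets include dimmer ones, so these shares are not like for like. The mean level of the mesenchymal markers was 9.15, 9.17 and 8.80 in replicates 1, 2 and 3. Of the 7 noradrenergic markers measured 6 passed, and they went opposite ways in replicate 3. GATA3 and ISL1 were higher by 0.64 and 0.69, while PHOX2A, HAND2 and GATA2 differed by -0.61, -0.61 and -0.51, and the list's mean level was 11.11, 10.99 and 10.98. Neither Schwann cell marker measured passed. The part of these in the differences by replicate number was not tested. None of the markers passed for treatment.

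The rest of the pathway was followed in 58 further genes, of which 39 were measured, taking the brightest probe set of each. None rose and none fell with Bf in limma at an adjusted p under 0.10 over all probe sets. At an unadjusted p under 0.05 there were 0, and 1 with the replicate block. Differences ran from -0.086 to 0.21, with a median of 0.0032 against 0.014 over all probe sets. The F test of the replicate number was passed by 12 of the 39, where 44.6% of all probe sets passed. That share includes dimmer probe sets, so it is not like for like with the brightest ones. Measured were 5 of 5 glycosyltransferases, 8 of 9 proteases, 7 of 8 coactivators and 9 of 13 corepressors of RBPJ, 5 of 10 endocytosis genes, 2 of 5 further ligands and receptors, and 3 of 8 further HES, HEY and Notch targets. All 3 of these targets lay below the array median on all 6 arrays.

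The largest of these differences was that of LFNG, the fringe glycosyltransferase that sets which ligands a receptor answers to. It read 7.25, 7.26 and 7.04 in Bf and 7.13, 7.15 and 6.64 in DMSO, all below the array median, and the groups overlapped. LFNG was higher in Bf in each of the 3 pairs, by 0.12, 0.11 and 0.39. This pattern was found in 5 of the 39 genes and 11.8% of all probe sets. The difference was 0.21 with a 95% interval from -0.18 to 0.60, and from 0.01 to 0.40 with the replicate block (limma adjusted p = 1.00 in both). The other positive differences of smallest p were those of the acetyltransferase EP300, an RBPJ coactivator (0.15, -0.21 to 0.51), and POFUT1, which adds fucose to Notch (0.09, -0.21 to 0.40). The negative ones were DLK2, a relative of DLK1 (-0.09, -0.33 to 0.16), HDAC1, a histone deacetylase (-0.06, -0.27 to 0.14), and the receptor NOTCH4 (-0.07, -0.32 to 0.18).

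By replicate number, the smallest p were those of DTX3, a Deltex ubiquitin ligase, the corepressors CTBP2 and TLE4, and PSENEN, a subunit of γ-secretase. DTX3 read 8.17, 8.49 and 7.33 in Bf and 8.60, 8.44 and 7.13 in DMSO, and differed by -1.19 in replicate 3 (F test adjusted p = 2.78e-05 in limma). CTBP2, TLE4 and PSENEN were higher there, with differences of 0.51, 0.48 and 0.35.

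**Figure D4:**
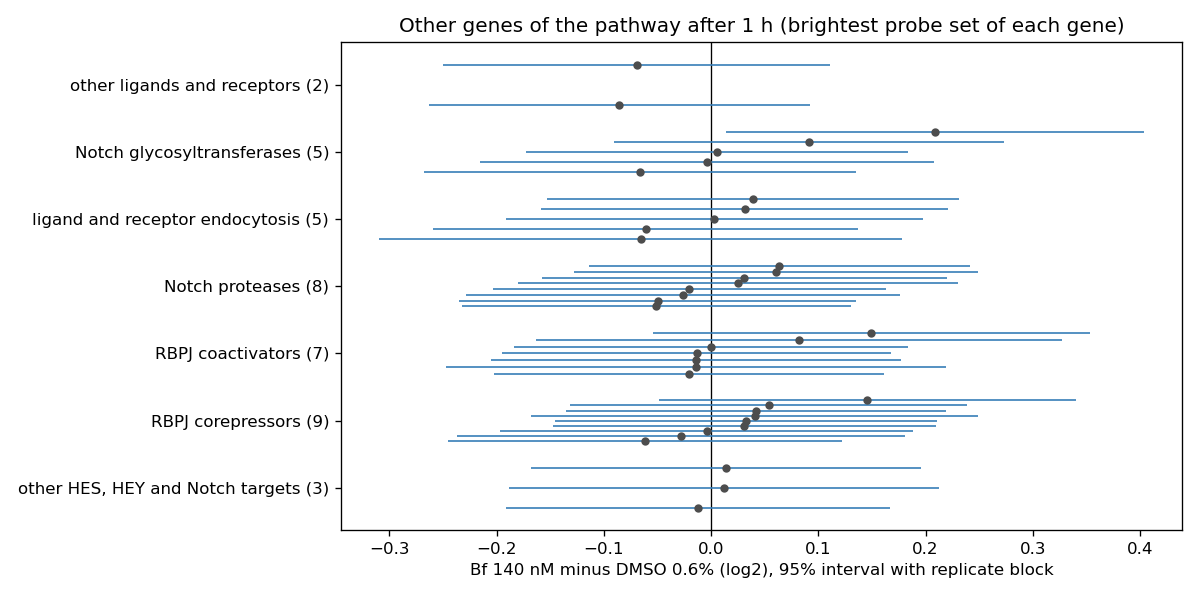
Bf 140 nM minus DMSO 0.6% on the log2 scale for the 39 other genes of the pathway, with a point for each gene's brightest probe set and a bar for its 95% interval with the replicate block, grouped by role with the number of genes measured. Points lie between -0.086 and 0.21, and the bar of LFNG, at the right among the glycosyltransferases, runs from 0.01 to 0.40.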

How the data were processed

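RNA of 6 cultures (3 treated with Bf 140 nM and 3 with DMSO 0.6%) was hybridized to 1 array each. Cell intensities were computed by the authors with GCOS and normalized by VSN ("justvsn") in R 2.5.0, and the deposited values are log2 values with 1 column per array, none of which was left unused (0 columns). Which arrays were normalized together, the summarization into probe sets and the genome build are not given in the sources used here. The authors' filter on detection calls was not repeated.

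Gene names came from the platform annotation, which gave 1 symbol to 19064 probe sets, several to 1043 and none to 2108. Of the members' symbols, 0 had changed in RefSeq. All 22215 probe sets left after 62 controls were fitted with limma 3.58.1 (lmFit, eBayes) in R 4.3.3, with Benjamini-Hochberg adjustment over all of them and calls at an adjusted p under 0.10, in place of the SAM of the methods. The scripts were tested on simulated data.

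The methods name no pairing, so the leading analysis had no block. Replicate numbers came from the titles, and no label ties a number to a shared day. They were taken as pairs from the values: once group means were subtracted, the Bf and DMSO arrays correlated at 0.725 for number 1, 0.783 for number 2 and 0.880 for number 3. Since number 3 stood apart in both groups and entered both means, the values for numbers 1 and 2 do not by themselves decide that pairing.

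The members and lists were chosen with earlier results of these data known. All probe sets of the members were named. Of the other pathway genes, named were the 3 with the smallest p in each direction and the 4 with the smallest p by replicate number, and for DLK1 and the member of largest SD the 3 genes of most like pattern. Alternatives tried were quantile normalization, equal array medians, a replicate block, trend and robust eBayes, filters at the median and lower quartile of the mean level, thresholds of 0.05 and 0.2, leaving out each array or both replicate 3 arrays, and the mean of a gene's probe sets. The fit by replicate number without replicate 3 and the counts of pair differences under other scalings were chosen after seeing the data.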

Additional observations from a re-analysis of the deposited data

How the results depend on the processing

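In 16 alternatives, 0 of the 22 probe sets and 0 of the other pathway genes passed for treatment, and with the replicate block as the paired analysis the count was 0 as well. Over all probe sets 0 passed, except for 25 without both replicate 3 arrays and with the replicate block. By replicate number 6 to 13 of the 22 passed (9 in the leading analysis, 6 without Bf replicate 2 or without both replicate 3 arrays), and 2783 of all probe sets did without replicate 3, against 9897. With both replicate 3 arrays left out and the replicate number in the fit, limma gave the members the same error, so such calls only rank the size of the difference. HES1 203394_s_at, NOTCH2 210756_s_at, NOTCH3 203238_s_at, HEY1 218839_at and RBPJ 211974_x_at passed in all 13 alternatives that kept a replicate 3 array. HES1 203395_s_at was lost without Bf replicate 2. DLK1 was lost with quantile normalization and without either replicate 2 array, and DLL3 with both other scalings and without DMSO replicate 3. JAG2 32137_at passed in 6 of 12. The cause was not tested. The sign of the treatment difference changed in 46 of 220 values, and 5 of the 22 probe sets kept it in each of 10 alternatives: HES1 203393_at, 3 of JAG1 and NOTCH2 202445_s_at. The difference of HES1 203394_s_at ranged from -0.17 without Bf replicate 2 to 0.52 without Bf replicate 1. With 3 arrays a group, small differences were not detectable. The intervals given are not adjusted for the number of probe sets tested, so differences somewhat beyond them could be missed too.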

Other observations

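Over the 6 arrays, the genes closest to DLK1 in pattern were MGST2, a microsomal glutathione transferase, ATP5F1A, a subunit of ATP synthase, and CELSR2, a cadherin of planar cell polarity. The root mean square difference of their centred log2 values from those of DLK1 was 0.050, 0.051 and 0.052, where the SD of DLK1 over the arrays was 0.19. MGST2 read 9.22, 8.93 and 9.27 in Bf and 9.16, 8.89 and 9.25 in DMSO, with replicate 2 lowest in both groups as for DLK1. HES1, the member with the largest SD by brightest probe set (0.57), had no gene as close in absolute terms. The distance was not scaled by the SD, so those for DLK1 and HES1 do not compare. Genes searched also had to reach a minimum SD set by that of DLK1 or HES1. The nearest to HES1 were SEL1L3, KCTD12 and MGP, the matrix Gla protein that inhibits calcification, at 0.237, 0.237 and 0.242. KCTD12 read 9.50, 10.32 and 9.28 in Bf and 9.20, 10.36 and 9.60 in DMSO, and MGP 10.63, 11.33 and 10.34 in Bf and 10.40, 11.29 and 10.56 in DMSO. Both were highest in the replicate 2 arrays, as HES1 was. These likenesses are descriptions over arrays that share cultures and processing.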
